A study of Gallus gallus with 6 samples.

Results

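Connexins are the proteins of vertebrate gap junctions, and this report follows 6 connexin genes, GJA1, GJA4, GJA5, GJB1, GJB6 and GJC1, through the feather cycle of the chicken. They were chosen by name, as rows of the deposited expression table, which holds 17 connexin genes among 23724 genes in all. The tissue was the papilla ectoderm, the epidermal progenitor sheet that surrounds the dermal papilla at the base of the follicle. It was taken from untreated White leghorn chicken contour feathers in the early growth phase (3 weeks of regeneration), the late growth phase (7 weeks) and the resting phase (10 weeks), with 2 libraries per phase. The methods describe plucking the feather, dissecting the dermal papilla and lifting off the papilla ectoderm in EDTA, and give the birds of the study as males aged from 6 months to 1 year. Nothing in these sources says whether the 2 libraries of a phase came from separate birds, so p values measure only the spread between libraries, which may be technical.

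Connexins assemble into hemichannels in the cell membrane, and hemichannels of neighbouring cells dock to form channels that pass ions and small metabolites from cytoplasm to cytoplasm. In skin, GJA1 and several beta connexins couple keratinocytes, and in humans mutations of GJB6 cause an ectodermal dysplasia of hair, nails and palms, whereas those of GJB2 cause disorders of keratinization. GJA5 and GJA4 are known from arterial endothelium and GJC1 from smooth muscle of vessels, all in mammals. In zebrafish, mutation of the GJA1 ortholog shortens the fins, and in chick embryos GJA1 channels couple the mesenchyme of feather buds.

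Levels are given in TPM (transcripts scaled to a fixed total per library), the unit deposited by the authors, which is scaled to transcript length and so allows genes to be compared within a library. Differences are log2 fold changes of TPM + 1 from 1 limma fit of all 6 libraries. A rise or a fall means a p below 0.05 after Benjamini-Hochberg adjustment over the 13063 genes with a mean above 1 TPM. 5 of the 6 connexins passed that filter and GJB1 did not. GJA4 and GJA5 lay below 1 TPM in both late growth libraries and passed through their levels in the other phases. With 2 libraries against 2, an exact permutation test of a single gene cannot go below p = 0.333, so each call rests on the spread that the fit shares across genes. Depth is unknown because the table holds no read counts, and a gene listed at 0 TPM may still have been transcribed.

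The libraries held epidermis together with other tissue. KRT5 and KRT14, the keratins of basal keratinocytes, were at 2959 to 5387 and 2290 to 4470 TPM in all 6 libraries. A list of 20 keratinocyte markers took 1.43 and 1.54% of TPM in early growth, 1.28 and 1.30% during late growth, and 1.05 and 1.06% at rest. For 22 smooth muscle markers the shares were 0.488 and 0.396%, 0.143 and 0.155%, and 6.31 and 6.49% in the same order. DES, the intermediate filament protein of muscle, was at 0.319 and 0 TPM in late growth but at 11701 and 12028 TPM in the resting phase. A list of 24 fibroblast and dermal papilla markers took 0.267 to 0.273% in early growth, 0.0341 to 0.0370% in late growth and 0.317 to 0.323% in the resting phase. For 15 erythroid markers the shares were 0.150 and 0.169%, 0.141 and 0.130%, and 5.58 and 5.61% in the same order. At rest HBBR was at 20026 and 20068 TPM, HBE at 10022 and 10600 TPM and HBZ at 8151 and 7986 TPM. In the growth libraries none of these globins exceeded 7.09 TPM. HBA1 and HBM were also higher at rest. HBBA was lower, at 290 and 248 TPM against 522 and 556 TPM in early growth. The source of the globin RNA was not tested. The early growth pair differed most in the number of tested genes listed at 0 TPM, with 124 in replicate 1 and 814 in replicate 2. These numbers were 546 and 577 in late growth and 405 and 433 at rest, so each early growth library lay outside the range of the others. Across all tested genes the median log2 fold change from early to late growth was −0.31. It became −0.01 when TPM were scaled by median of ratios and 0.04 after quantile normalization, so changes at this step are read against that shift.

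GJA1 (connexin 43), the main connexin of keratinocytes, held its TPM as deposited through growth and was low at rest. Its direction from early to late growth depended on the scaling, as given below. It was at 1833 and 1942 TPM in early growth, 1903 and 1972 TPM in late growth, and 250.0 and 253 TPM in the resting phase. The growth libraries overlapped with each other, and all 4 lay far above the resting pair. From late growth to the resting phase GJA1 fell 7.71-fold in mean TPM, with 1937 ± 49.4 TPM (SD, n = 2) before and 251 ± 2.03 TPM (SD, n = 2) after. The difference was −2.94 on the log2 scale (standard error 0.05, limma adjusted p = 1.9e-06). Against early growth the resting level had a log2 fold change of −2.90 and a standard error of 0.05 (adjusted p = 3.8e-06). GJA1 ranked 93 among the genes of both early growth libraries, 101 and 99 in late growth, but 418 and 413 in the resting phase.

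The keratinocyte markers went both ways at entry into rest. 12 of the 20 were lower and 3 higher in the resting than in the late growth phase, with a median log2 fold change of −0.50, beside 0.02 for all tested genes. Of all tested genes 23.1% were lower and 24.7% higher. CLDN1, a claudin of tight junctions, and EHF, an epithelial transcription factor, fell by more than GJA1 (log2 fold change −4.23 and −5.20, adjusted p = 3.5e-06 and 1.5e-05). KRT15, a keratin of basal cells, and COL17A1, a collagen of hemidesmosomes, rose (3.25 and 2.13, adjusted p = 3.9e-06 and 8.9e-06). Set against KRT5 of the same library, the marker with the highest mean TPM, GJA1 was at 37.9 and 36.0 TPM per 100 TPM of KRT5 in early growth. This ratio was 48.0 and 47.8 in late growth but 8.45 and 8.34 in the resting phase. Against CLDN1 the order was the opposite, with GJA1 at 3.93 and 3.74 times CLDN1 in late growth and 10.1 and 9.33 times at rest, so the direction of a ratio within libraries depended on the marker. In bulk tissue, fewer cells of a type and less RNA per cell cannot be told apart.

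From early to late growth the log2 fold change of GJA1 was 0.04 (95% confidence interval −0.09 to 0.17, adjusted p = 0.62). Its direction at this step depended on the scaling. With median-of-ratios scaling it rose by 0.37 (adjusted p = 0.039), whereas with quantile normalization it fell by 0.19 (adjusted p = 0.038).

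**Figure D1:**
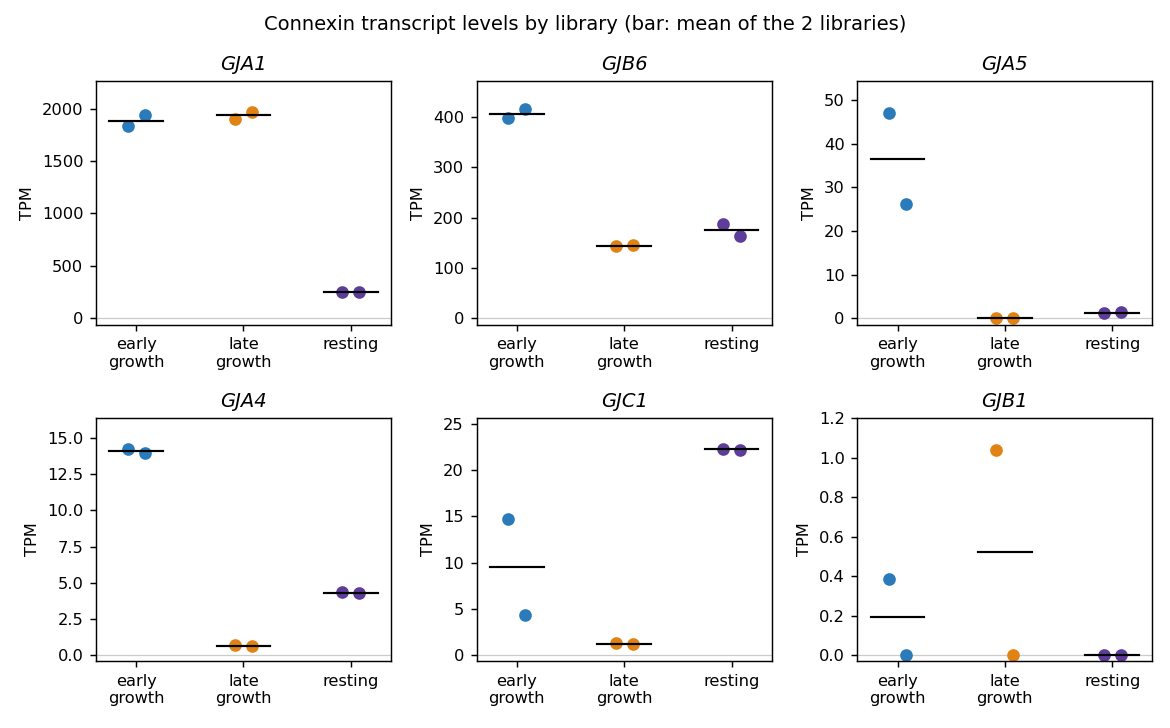
TPM of the 6 connexins (vertical axes, linear, a scale of its own for each gene) in the 2 libraries of each phase (horizontal axes). Points are libraries and bars their mean. GJA1 kept between 1833 and 1972 TPM in the 4 growth libraries and was at 250.0 and 253 TPM at rest, whereas GJB6 left its early level of 398 and 415 TPM already in late growth, and GJA5 had 0 TPM in each late growth library.

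GJB6 (connexin 31 in the chicken gene table), the beta connexin of stratified epithelia and hair follicles, had its drop a step earlier. It was at 398 and 415 TPM in early growth, 143 and 146 TPM in late growth, and 187 and 164 TPM in the resting phase. The phases did not overlap. From early to late growth the mean became 2.82-fold lower, at 407 ± 12.5 TPM (SD, n = 2) before and 144 ± 1.90 TPM (SD, n = 2) after. On the log2 scale this was −1.49 (standard error 0.09, adjusted p = 0.00023), which is beyond the shift of all genes, and it stayed called under each scaling tried. Between early growth and the resting phase the difference was −1.21 on the log2 scale (standard error 0.09, adjusted p = 0.00016).

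In TPM as deposited, the late growth and resting levels of GJB6 were close to each other. The log2 fold change was 0.28 (95% confidence interval 0.07 to 0.49), with an adjusted p of 0.038. The call was lost without late growth replicate 1 or 2 (adjusted p = 0.15 and 0.12), without resting replicate 1 (adjusted p = 0.15) and under scaling by median of ratios (adjusted p = 0.084). Neither the replicate block (adjusted p = 0.064) nor a fit without the variance trend (adjusted p = 0.14) called it. Per 100 TPM of KRT5 in the same library, GJB6 was at 8.23 and 7.71 TPM in early growth. This ratio was 3.61 and 3.53 in late growth and 6.32 and 5.41 at rest, and it was not tested.

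As GJA1 and GJB6 moved at different steps, their ratio separated the 3 phases. GJA1 exceeded GJB6 4.61- and 4.68-fold in the early growth libraries, 13.3- and 13.5-fold in the late growth libraries, and 1.34- and 1.54-fold in the resting libraries. This ratio is taken within a library and does not depend on the scaling between libraries. No test of the ratio was made. The TPM of the 17 connexin genes summed to 2401 and 2506 in early growth, to 2095 and 2164 in late growth, and to 506 and 504 at rest. GJA1 made up 76.3 and 77.5% of that sum in early growth, 90.8 and 91.1% during late growth, and 49.4 and 50.2% at rest. GJB6 made up 16.6% in each early growth library, 6.82 and 6.73% in late growth, and 37.0 and 32.5% at rest.

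**Figure D2:**
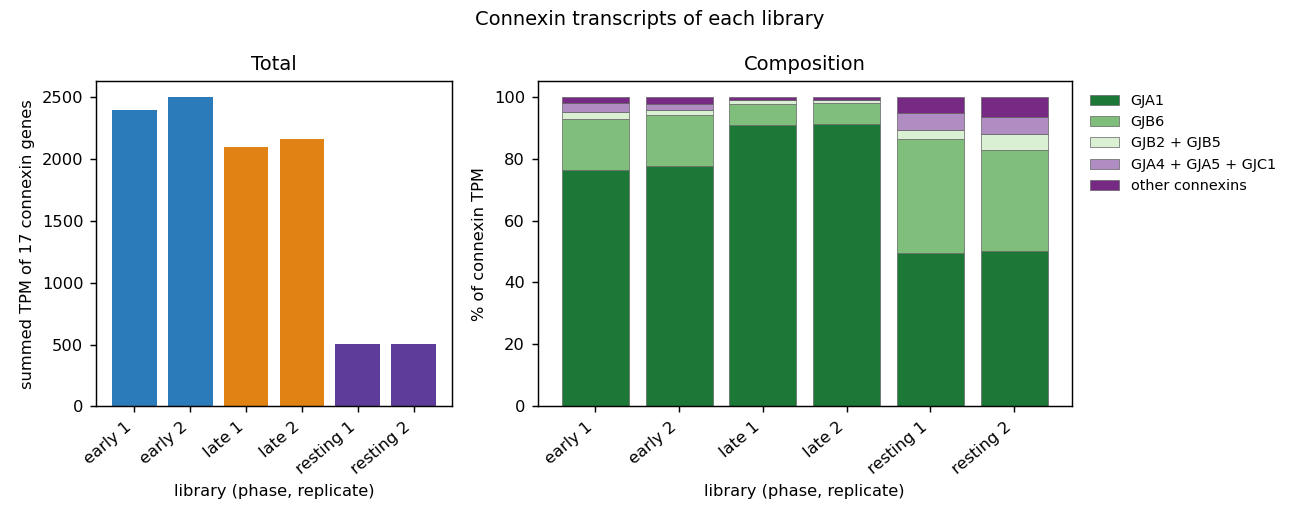
Summed TPM of the 17 connexin genes in each library (left, linear axis) and the percentage of that sum taken by GJA1, GJB6, GJB2 with GJB5, the group GJA4, GJA5 and GJC1, and the remaining connexins (right). The sum lay between 2095 and 2506 in the 4 growth libraries and at 504 and 506 at rest, where the share of GJB6 reached 32.5 and 37.0%.

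GJA5 and GJA4, the connexins of arterial endothelium, were highest in early growth and lowest in late growth. GJA5 was at 47.1 and 26.1 TPM in early growth, is listed at 0 TPM in each late growth library, and was at 1.22 and 1.40 TPM in the resting phase. No phase overlapped another. The change from early to late growth passed the test (adjusted p = 0.00039), and no fold is given against values of 0. The resting level was lower than that of early growth, with a difference of −3.97 on the log2 scale (standard error 0.35, adjusted p = 0.00034). The return at rest from 0 to about 1 TPM had an adjusted p of 0.031. It was lost without late growth replicate 1 or 2 (adjusted p = 0.13 and 0.13) and without resting replicate 1 or 2 (adjusted p = 0.11 and 0.13). No filter and quantile normalization lost it as well (adjusted p = 0.053 and 0.062).

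GJA4 (connexin 39 in the chicken gene table) was at 14.2 and 14.0 TPM in early growth, 0.663 and 0.616 TPM in late growth, and 4.33 and 4.25 TPM in the resting phase. The libraries of a phase lay close together, and no phase overlapped another. It fell from early to late growth by 3.20 on the log2 scale (standard error 0.24, adjusted p = 0.00055) and rose again at rest by 1.69 (standard error 0.24, adjusted p = 0.0021). Between early growth and rest the difference was −1.51 on the log2 scale (standard error 0.24, adjusted p = 0.0033).

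Most endothelial markers fell with both genes after early growth, and fewer of them rose again at rest. CDH5, the cadherin of endothelial junctions, was at 42.5 and 37.4 TPM in early growth, 2.91 and 3.07 TPM in late growth, and 10.1 and 15.5 TPM at rest. The 19 endothelial markers summed to 0.0741 to 0.0746% of TPM in early growth, 0.0297 to 0.0304% in late growth and 0.0249 to 0.0258% at rest. SOX7, a transcription factor known from endothelium and the marker of the list with the highest mean TPM, kept 250.2 and 248 TPM in late growth. Without it, a choice made after its values were seen, the sums were 424 and 413 TPM in early growth, 46.6 and 55.3 TPM in late growth, and 236 and 219 TPM at rest. ROBO4 and SOX17, endothelial markers of low level, are at 0 TPM in each library of late growth. From early to late growth 14 of 17 tested endothelial markers fell and 0 rose. From late growth to rest 9 rose, 2 fell (SOX7 and TAL1) and 6 were not called, and the summed share of the whole list did not rise. Of all tested genes 28.4% fell and 5.24% rose at the first of these steps, and 24.7% rose and 23.1% fell at the next.

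CDH5 was taken for a ratio after its values were seen, and GJA4 kept nearer to it than GJA5 did. The ratio of GJA4 to CDH5 was 0.335 and 0.373 in early growth, 0.228 and 0.201 during late growth, and 0.429 and 0.274 at rest. The ratio of GJA5 to CDH5 was 1.11 and 0.698 in early growth, 0 in both late growth libraries, and 0.121 and 0.0899 at rest, with CDH5 above 2 TPM throughout. This nearness was to CDH5 and was not shared by every marker. From early growth to rest 9 of 17 tested endothelial markers fell, 0 rose and 8 were not called. Of all tested genes 34.0% fell and 15.8% rose between these phases. PECAM1 was at 89.3 and 72.9 TPM in early growth and 53.8 and 59.7 TPM at rest. TEK was at 24.6 and 27.8 TPM in early growth and 25.6 and 25.3 TPM at rest. The part of a changing endothelial content in these connexin levels was not tested.

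GJC1 was the only tested connexin of the 6 with its highest level in the resting phase. The chicken gene table lists GJC1 and GJA7 as synonyms of its symbol GJC3. It was at 14.7 and 4.28 TPM in early growth, 1.25 and 1.22 TPM in late growth, and 22.3 and 22.2 TPM at rest. The early growth pair differed more than 3-fold, the other pairs by less than 0.1 TPM, and no phase overlapped another. From late growth to rest it rose by 3.38 on the log2 scale (standard error 0.50, adjusted p = 0.0024). From early to late growth the difference was −2.03 on the log2 scale (standard error 0.50, adjusted p = 0.026). This call was lost without late growth replicate 1 or 2 (adjusted p = 0.13 and 0.13) and without resting replicate 1 or 2 (adjusted p = 0.079 and 0.079). It was also lost with quantile normalization (adjusted p = 0.073), without a filter (adjusted p = 0.053) and with only the early and late libraries (adjusted p = 0.079).

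The resting against the early growth level of GJC1 did not pass, at a log2 fold change of 1.35 (95% confidence interval 0.13 to 2.58, adjusted p = 0.066). Without early growth replicate 1, the higher of the pair, it was 2.14 (adjusted p = 0.0019). With scaling by median of ratios, by quantiles or by rescaled TPM it was 1.66, 1.65 and 1.53 (adjusted p = 0.027, 0.021 and 0.048).

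Smooth muscle markers moved in the same direction as GJC1 at both steps, with larger medians. Other lists moved in that direction too, the leukocyte list with smaller medians than the changes of GJC1 (−1.14 and 1.62). Of 24 fibroblast and dermal papilla markers, 23 fell from early to late growth and 24 rose from late growth to rest. Of 15 tested leukocyte markers, 8 fell at the first step and 12 rose at the next. Of all tested genes 28.4% fell at the first step and 24.7% rose at the next. All 22 smooth muscle markers rose from late growth to rest, with a median log2 fold change of 6.88, and 20 fell from early to late growth, with a median of −3.61. From early growth to rest, where GJC1 was not called, 21 of the 22 rose, with a median of 4.17. Of all tested genes 15.8% rose between these phases. TAGLN, the transgelin of smooth muscle, was at 424 and 350 TPM in early growth, 1.88 and 1.09 TPM in late growth, and 8837 and 8973 TPM at rest. MYH11, the smooth muscle myosin, exceeded GJC1 15.5- and 29.4-fold in early growth, 1.27- and 1.59-fold during late growth, where MYH11 lay below 2 TPM, and 217- and 223-fold at rest. The part of muscle or of any other tissue in the GJC1 level was not tested.

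**Figure D3:**
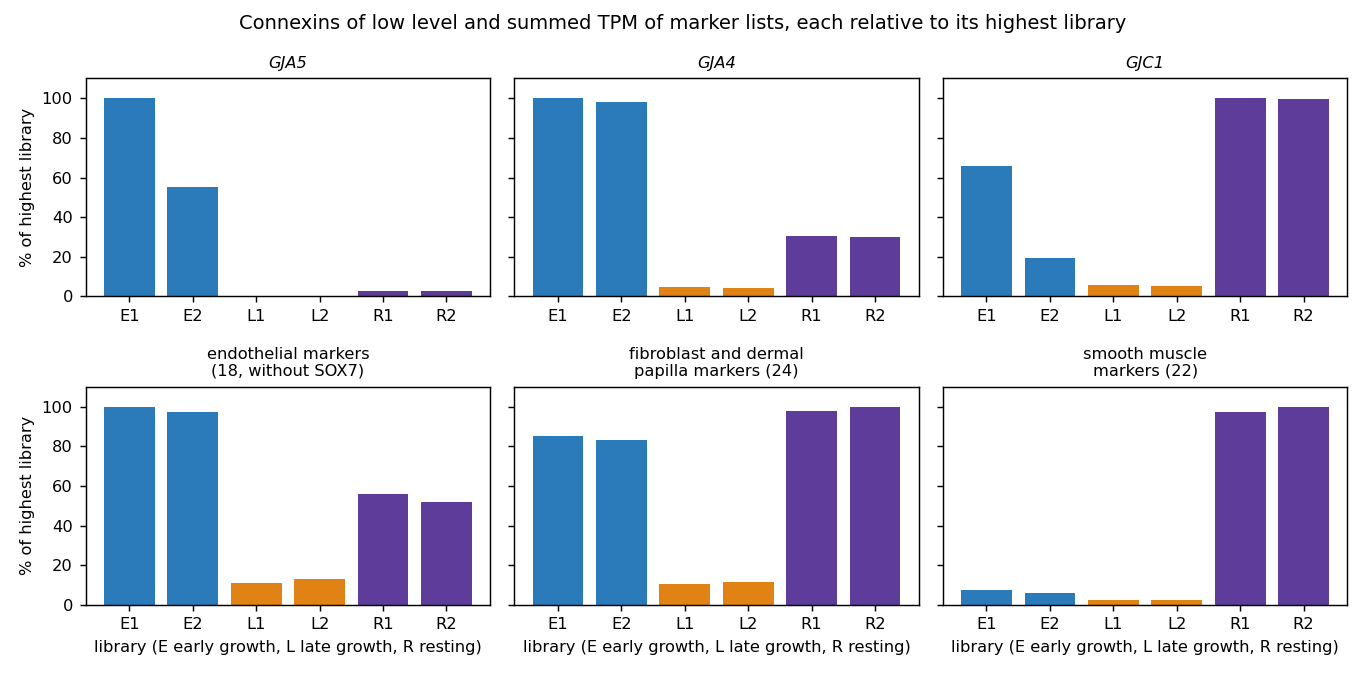
TPM of GJA5, GJA4 and GJC1 (top) and the summed TPM of 3 marker lists (bottom, the endothelial list without SOX7) in each library, as a percentage of the highest library of the same panel (linear axes from 0). Bars are libraries. All 6 panels were lowest in late growth. SOX7 was left out after its values were seen, and with it the endothelial sum was lowest at rest. That sum was 297 and 303 TPM in late growth and 256 and 246 TPM at rest. GJA5, GJA4 and the endothelial sum were highest in early growth, and GJC1, the smooth muscle sum and the fibroblast and dermal papilla sum were highest at rest.

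GJB1 (connexin 32), known from liver and Schwann cells in mammals, was hardly seen. It was at 0.385 and 0 TPM in early growth, 1.04 and 0 TPM in late growth, and 0 TPM in both resting libraries. The phases overlapped, and at a mean of 0.238 TPM the gene was not tested. Without a filter its adjusted p was 0.67, 0.35 and 0.66 for late against early growth, resting against late growth and resting against early growth. For 15 markers of Schwann cells and neurons the summed share ran from 0.00744 to 0.0206% of TPM. It was lowest in late growth and highest at rest, where GJB1 was at 0 TPM. From late growth to rest 24.7% of all tested genes rose and 23.1% fell. Of the 11 tested Schwann cell and neuron markers, 7 rose, 2 fell and 2 were not called. The part of these cells in the GJB1 level was not tested.

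Counted over the 5 tested members, 4 fell and 0 rose from early to late growth, with GJA1 not called. Of all tested genes 28.4% fell and 5.24% rose at this step. The median log2 fold change of the members was −2.03, which is the value of GJC1, against −0.31 for all tested genes. GJA4 and GJA5 lay below 1 TPM in late growth and passed the filter through the other phases. That favours falls into late growth and rises out of it. The counts and medians that involve late growth are not read as a result about the members. From late growth to rest 4 rose and 1, GJA1, fell, against 24.7% of all tested genes higher and 23.1% lower. No median is given for this step because the middle value belongs to GJA5, which is at 0 TPM in late growth. From early growth to rest 4 fell and 0 rose, against 34.0% lower and 15.8% higher. The medians were −1.51, which is the value of GJA4, and −0.27. GJA5 was at 1.22 and 1.40 TPM at rest and 0 TPM in late growth, so it passed the filter only through early growth. That favours its fall from early growth to rest, and the count and median of this step are not read as a result either. Several of these calls changed when a single library was left out, as described for each gene. As the 3 comparisons share libraries, they are not independent of each other.

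**Figure D4:**
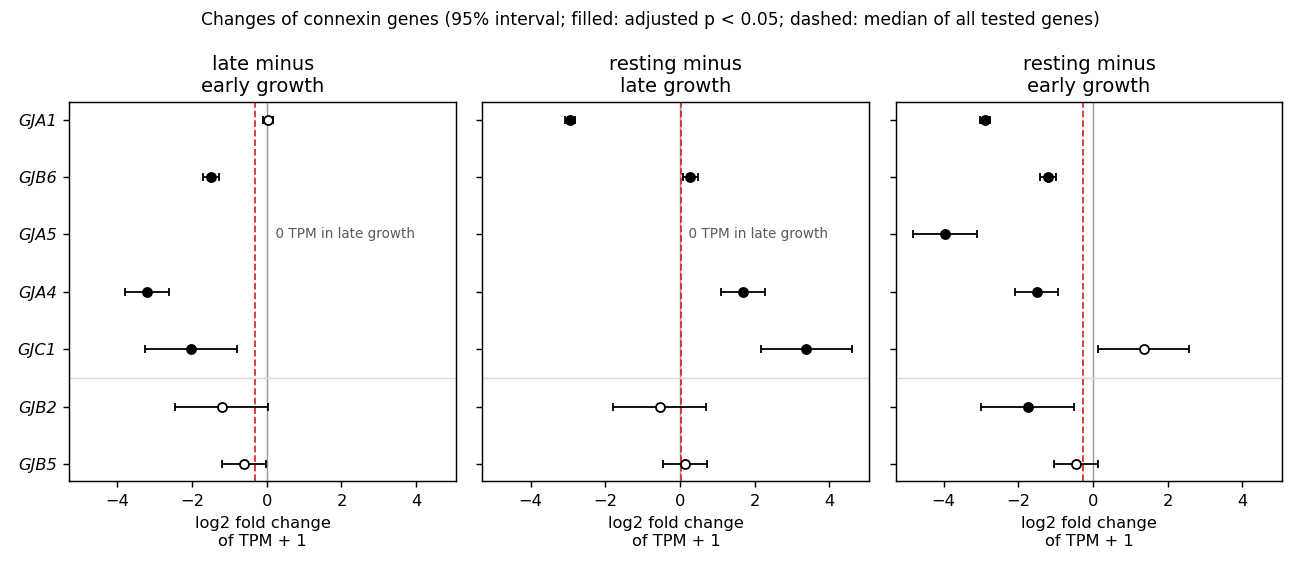
Log2 fold changes of TPM + 1 (horizontal axes) for the 5 tested members (top) and GJB2 and GJB5 (bottom) in the 3 comparisons. Points are estimates with their 95% confidence interval, filled where the adjusted p was below 0.05, and the dashed line is the median of all tested genes (−0.31, 0.02 and −0.27). GJA1 sat near 0 from early to late growth and at −2.94 from late growth to rest, and GJA5 is left out where late growth enters, since it is listed at 0 TPM there.

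The order of levels within a phase changed below the first 2 places. GJA1 led and GJB6 came second in every phase, and their ranges did not overlap with each other or with the next gene. In early growth GJA5 followed, then GJA4 and GJC1, whose ranges overlapped, and then GJB1. In late growth GJC1 came next, ahead of GJA4 and GJB1, which overlapped, and GJA5 at 0 TPM overlapped with GJB1. At rest the order after GJB6 was GJC1, GJA4, GJA5 and GJB1, with no overlap between neighbours.

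Of 11 further connexin genes in the table, 4 passed the filter. GJB2 and GJB5 are beta connexins of epidermis, and both were at their highest mean in early growth. GJB2 was at 31.6 and 29.9 TPM in early growth, 13.1 and 12.3 TPM in late growth, and 4.26 and 15.8 TPM at rest, where the pair was wide enough to enclose late growth. From early to late growth its log2 fold change of −1.21 did not pass (adjusted p = 0.12). It did without resting replicate 1 or 2 (adjusted p = 0.016 and 0.019) and with only the early and late libraries (adjusted p = 0.016). Against early growth the resting level was called (−1.75, adjusted p = 0.031), but not without early growth replicate 1 or 2 (adjusted p = 0.11 and 0.10) or late growth replicate 1 or 2 (adjusted p = 0.075 and 0.075), nor under 5 further settings (adjusted p from 0.053 to 0.074). From late growth to rest it was called only without resting replicate 2 (−1.38, adjusted p = 0.014). GJB5 was at 7.43 to 15.8 TPM and was not called in any comparison (adjusted p from 0.10 to 0.65).

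GJA9 stayed at 0.382 to 1.31 TPM. GJA3, GJA10, GJD3 and GJD4 did not exceed 0.844 TPM in any library, and GJD2, a connexin of neurons, is listed at 0 TPM in all 6.

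In the chicken gene table GJB6 is followed by GJB2 and GJA3, with 0 protein-coding genes between them. These neighbours differed in level. GJB6 exceeded GJB2 12.6- and 13.9-fold in early growth, 10.9- and 11.8-fold in late growth, and 43.9- and 10.4-fold at rest, and GJA3 stayed below 1 TPM.

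The pannexins form channels in single membranes and are unrelated in sequence to connexins. PANX3, known from cartilage, bone and skin, was at 24.8 and 18.5 TPM in early growth, 6.38 and 5.98 TPM in late growth, and 8.14 and 9.14 TPM at rest. It fell from early to late growth by 1.64 on the log2 scale (standard error 0.22, adjusted p = 0.0036) and stayed lower at rest (−1.22, adjusted p = 0.0054). PANX1 (3.07 to 7.20 TPM) and PANX2 (0.513 to 4.49 TPM) were not called. Without early growth replicate 2, PANX1 was lower in late growth (−0.94, adjusted p = 0.034) and at rest (−0.83, adjusted p = 0.032) than in early growth. PANX2 was lower at rest than in early growth without that library (−1.64, adjusted p = 0.033), and lower than in late growth without early growth replicate 1 or 2 (adjusted p = 0.049 and 0.048). Quantile normalization called PANX2 lower at rest than in either growth phase (adjusted p = 0.036 for early and 0.0087 for late growth). In all, 2 settings that kept all libraries called PANX2 lower at rest than in late growth.

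Among 25 genes for partners and regulators of connexins, 1 rose and 5 fell from early to late growth, 3 rose and 9 fell from late growth to rest, and 2 rose and 11 fell from early growth to rest. Of all tested genes 5.24% rose and 28.4% fell, 24.7% rose and 23.1% fell, and 15.8% rose and 34.0% fell in the same order. The counts are not read as a result about the partners. The medians of the 25 genes were −0.01, −0.19 and −0.48, beside −0.31, 0.02 and −0.27 for all tested genes. NOV (also CCN3), a secreted matricellular protein that can bind GJA1 in mammals, was at 767 and 906 TPM in early growth, 428 and 441 TPM in late growth, and 19.9 and 22.4 TPM at rest. On the log2 scale NOV fell by 0.94 at the first step and by 4.30 at the next (adjusted p = 0.0021 and 4.3e-06). ERP29, a chaperone that binds unassembled GJA1 in mammals, was at 278 and 308 TPM in late growth and 109 and 101 TPM at rest (log2 fold change −1.47, adjusted p = 6.7e-05).

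TJP1, a junction scaffold that binds the tail of GJA1, went from 121 and 147 TPM in late growth to 56.7 and 54.2 TPM at rest (−1.25, adjusted p = 0.00060). CDH1, the epithelial cadherin, fell at both steps (−0.63 and −1.09, adjusted p = 0.0046 and 0.00026). CDH2 and DBN1, a cadherin of mesenchyme and an actin-binding partner of GJA1, fell from early to late growth (−2.05 and −1.05, adjusted p = 0.012 and 0.0089). CAV1, the caveolar protein, which is abundant in muscle and endothelium, went from 29.6 and 26.1 TPM in late growth to 409 and 408 TPM at rest (3.83, adjusted p = 0.00022). CAV1 rose at this step as did the smooth muscle markers described above, and so did all 24 fibroblast and dermal papilla markers. From early to late growth CAV1 was not called (−0.52, adjusted p = 0.25). The part of any tissue in the CAV1 level was not tested.

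Likeness of pattern was measured as the root mean square difference of log2(TPM + 1), centred on each gene's mean, over the 6 libraries and 11319 tested genes with a symbol. The genes nearest to GJA1 were DLX4, NSDHL and STON2, at 0.081, 0.10 and 0.11. DLX4 was at 84.9 to 106 TPM in the 4 growth libraries and at 12.7 and 12.1 TPM at rest. Nearest to GJB6 were LMAN2L, RITA1 and C1QTNF1 (0.078, 0.083 and 0.085). Nearest to GJA4 were C1QTNF6, SRD5A2 and TFPI2 (0.092, 0.12 and 0.13), and to GJC1 SP5, PDE9A and NDRG4 (0.17, 0.18 and 0.20). For GJA5 the nearest were PTN, CYP2AB1 and ABCC3 at 0.37, 0.56 and 0.63, with a correlation of 0.989 for PTN. The measure is not scaled to the spread of a gene around its own mean. That spread was 2.22 for GJA5 and 0.65 for GJB6, so these values do not rank how well members were matched. Between the members themselves the smallest value was 0.75, for GJA4 and GJB6, and the largest 2.67, for GJA1 and GJC1.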

How the data were processed

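RNA was sequenced by the authors from TruSeq libraries as short single reads. Per the labels and the paper's methods, the deposited TPM values were computed by the authors with StringTie (default settings, GRCg6a). The aligner and the treatment of reads that map to several genes are not given in the sources used here. TPM values were used as deposited, 1 column per library. TPM sums ran from 989472 to 998451 per library, and precision comes only from the spread between libraries. The study's count model needs read counts, so log2(TPM + 1) was fitted with limma 3.58.1 in R 4.3.3 (cell means of the 3 phases, variance trend), after a filter at a mean above 1 TPM. The fit was also run on simulated data, with 200 genes above the median level changed and the same spread for a gene in all phases. In the data the root mean square SD of log2(TPM + 1) was 0.56 in early growth, 0.27 in late growth and 0.36 at rest. The simulation therefore does not cover unequal spreads or changed genes near 0 TPM, and no result rests on it.

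The 6 members and the gene lists were chosen with earlier results of these data known. All members were named, with every connexin or pannexin above 1 TPM in any library, up to 4 called partner genes per comparison, leading markers of the lists a result touches, and the 3 genes most like each member. CLDN1, EHF, KRT15, COL17A1, TAL1, CDH5, PECAM1, TEK, MYH11, ROBO4, SOX17 and the other connexins described as untested were chosen after their values were seen. Symbols were taken as the files give them, and the RefSeq gene table (GRCg7b) served for synonyms and gene order only. In the partner list NOV stands for CCN3 and TRIM21 had no match. In the erythroid list ALAS1 was taken for ALAS2 as a synonym. Lists of erythroid, leukocyte and melanocyte markers were also summed. They took 0.130 to 5.61%, 0.0111 to 0.118% and 0.000539 to 0.00420% of TPM. Alternatives were other pseudocounts, filters, scalings, a fit of 2 phases, no variance trend, a replicate block, each library left out in turn, and the thresholds of the methods. Protein and promoter sequences of the connexins were not used here. Some genes that the naming rule covers are not reported here.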

Additional observations from a re-analysis of the deposited data

How the results depend on the processing

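A set of changes passed a limma adjusted p below 0.05 under every scaling, pseudocount and filter tried, and kept its direction with each library left out. These were the fall of GJA1 at rest and the falls of GJB6, GJA4 and GJA5 after early growth. The rises of GJA4 and GJC1 from late growth to rest did so as well. GJA4 and GJA5 entered the fits through the phases where they are high, and GJA5 is at 0 TPM in both late growth libraries. Passing these settings therefore adds no support for their changes. The 4 falls from early to late growth became 3 to 4, the 4 rises from late growth to rest 2 to 4, and the 0 rises from early growth to rest 0 to 1 when each library was left out in turn. Median-of-ratios scaling added 1 rise from early to late growth, GJA1, whose log2 fold change at that step was −0.19 with quantile normalization. From early growth to rest 1 rise, GJC1, was added with median-of-ratios scaling, quantile normalization and TPM rescaled without erythroid and smooth muscle genes. With an adjusted p below 0.01 and a log2 fold change above 2 in size, 2 members fell from early to late growth, 1 rose and 1 fell from late growth to rest, and 2 fell from early growth to rest. Counts over all tested genes ranged widely across the settings that kept all libraries, this threshold included. From early to late growth 519 to 3710 genes fell. From late growth to rest 1083 to 3907 rose and 478 to 3579 fell, and from early growth to rest 689 to 4437 fell. The member counts at the stricter threshold are not read as a result about the members. The cause of the differences between settings was not tested, other than that the stricter threshold calls fewer genes by construction.

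Replicate numbers gave no detectable sign of pairing, as deviations of same-numbered libraries from their phase means correlated at −0.029, 0.0083 and 0.015 over genes. With 2 libraries per phase, these correlations cannot show whether same-numbered libraries shared a bird or a batch. With the replicate block 4 members fell from early to late growth, 3 rose and 1 fell from late growth to rest, and 4 fell from early growth to rest. The counts of all tested genes with the block lay within the ranges given above. Over all tested genes, the counts of rises and falls from early to late growth were 684 and 3710 and became 1675 and 1994 with median-of-ratios scaling and 1611 and 1775 with quantile normalization. Without late growth replicate 1 or 2 they were 246 and 1499 or 230 and 1587. Depth is unknown, and for connexins near 1 TPM (GJA4 and GJC1 in late growth, GJA5 at rest) the pseudocount sets much of the log2 fold change. The same holds for GJA5 in late growth, where it is at 0 TPM.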
